A study of Mus musculus with 6 samples.

Results

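The genes described here mark B cells and carry the signal of the B cell antigen receptor. They were taken as a list of 37 gene symbols, and every array probe annotated with one of these symbols was included. The list was matched by 32 genes with 52 probes, of 16593 named genes and 25697 probes on the array. No probe of Igll1, Cd38, Cd72, Lyn or Bank1 was in the annotation used, and these 5 genes were not analysed here. Of the 32 genes, 25 had a probe detected on at least 3 of the 6 arrays and were tested, against 9849 genes tested in all.

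RNA came from the thymus of Rag2/pfp knockout mice (3 samples) and wild-type mice (3 samples), and was hybridised to 1-colour Illumina MouseRef-8 v2 bead arrays, 1 array per sample. Rag2 belongs to the enzyme that cuts and joins the segments of antigen receptor genes, and pfp (now Prf1) encodes perforin, which cytotoxic lymphocytes use to open pores in target cells. The design contrasts whole thymus of the double knockout with that of the wild type, with no single knockout among the samples. Nothing in the labels ties a sample to its own animal, and the sources used here give no age, sex or strain. The p-values therefore measure only the spread between these arrays, which may be technical in part.

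A B cell carries a membrane immunoglobulin that signals through the Cd79a and Cd79b chains to the kinases Syk, Blk and Btk and the adaptor Blnk. Co-receptors such as Cd22 and Fcgr2b dampen that signal, and receptors for the cytokines BAFF and APRIL keep mature B cells and plasma cells alive. B cells are a small resident population of the normal thymus, and their development requires the recombinase. Several of the genes are also used by other cells of the thymus, among them Bcl6, Irf4, Xbp1, Blk and Spib in T lineage or dendritic cells.

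Of the 25 tested genes, 10 fell in the knockout, and none rose. A fall or a rise here means a Benjamini-Hochberg adjusted p under 0.05 in the limma fit over all tested probes, on normalized log2 signal. The 10 were Cd79a, Fcmr, Pou2af1, Tnfrsf13c, Fcrla, Cd22, Tnfrsf17, Blnk, Fcer2a and Pou2f2. Among all tested genes 5.57% fell and 6.09% rose. At an unadjusted p under 0.05 in the same fit, 16 of the 25 were lower and 1, Xbp1, was higher. In 15 of the 25, or 60%, every knockout array lay below every wild-type array, against 17.3% of all tested genes. The median difference, knockout minus wild type, was −1.16 on the log2 scale for the 25 genes and 0.01 for all tested genes.

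Part of that count is set by the detection filter. Of the 25 genes, 6 passed it through the wild-type arrays only, since no knockout array detected them, and such a gene had to differ to be tested at all. Of the 10 that fell, 5 were detected on no knockout array, 2 on some of them and 3 on all. For the 549 genes that fell in all, these counts were 60, 56 and 433. Of the genes detected on no knockout array, 5 of 6 members fell, and so did 60 of 100 among all tested genes. Among genes detected on all 6 arrays, 3 of 16 members fell, or 18.8%, against 5.11% of all genes. With no detection filter, 10 of 32 members fell, against 2.73% of 16593 genes. The median over those 32 was −0.59, or −0.57 with each probe that was undetected in a genotype set at its bound, and that over all genes was 0.01. In bulk tissue, fewer cells of a type and less RNA per cell cannot be told apart.

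The sizes of the falls depended on the background correction, whereas all 10 calls held without it. Without it, as in the authors' processed values, the fold fell from 11.3 to 5.61 for Pou2af1, from 5.31 to 3.5 for Fcrla, from 4.18 to 1.91 for Cd22, from 3.63 to 1.74 for Blnk and from 3.02 to 1.72 for Pou2f2. For genes detected on no knockout array, the lower bound of the fold went from 27.6 to 8.28 for Fcmr, from 15.8 to 5.04 for Cd79a, from 4.81 to 2.05 for Tnfrsf13c, from 2.48 to 1.43 for Fcer2a and from 2.39 to 1.39 for Tnfrsf17. The sizes given for each gene below are those with the correction.

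The targeted genes, and genes that set arrays apart in ways the genotype does not explain, were read as checks. The Rag2 probe read 6.98, 6.73 and 7.88 on knockout arrays 1 to 3 and 9.17, 8.17 and 8.78 on wild-type arrays 1 to 3, a difference of −1.51 (SE 0.39, adjusted p = 0.0579), and the sources used here do not say whether it lies inside the deleted part. The brighter Prf1 probe differed by −0.64 (SE 0.19, adjusted p = 0.0866). Knockout 3 and wild type 2 were the only arrays with high Eif2s3y, a Y-linked gene (9.47 and 9.40, against at most 4.95), and with low Xist on both its probes, so neither genotype was sampled from a single animal. Knockout 2 and wild type 2 were the arrays with the highest Ucp1, a brown fat gene (14.24 and 14.01), and Myh6, a heart gene (13.10 and 13.12 on its brighter probe). These transcripts were not confined to replicate 2. Knockout 1 read 13.62 for Ucp1 and 11.46 for Myh6, and wild type 3 read 11.75 and 7.67. Knockout 3 read 6.13 and 4.77, and wild type 1 read 8.88 and 4.87. Each array detected 13729 to 13878 probes at a median signal of 172 to 186 units, and correlations between arrays ran from 0.852 to 0.99. The effect of leaving out arrays is given beside the results it touches.

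To show the regulatory sequence in front of genes whose signal dropped together, promoters of 5 fallen genes follow, as RefSeq gives them on GRCm38.p6, from 250 bases before the gene start to 50 bases after it and in the direction of the gene. Fcmr (chr1:130865527-130865826, plus strand), Cd79a (chr7:24897247-24897546, plus strand) and Pou2af1 (chr9:51213440-51213739, plus strand) were the genes whose fold, or the lower bound of it, was above 10. Blnk (chr19:40994172-40994471, minus strand) and Cd22 (chr7:30878979-30879278, minus strand) are shown because they held one of the motifs searched.
Fcmr: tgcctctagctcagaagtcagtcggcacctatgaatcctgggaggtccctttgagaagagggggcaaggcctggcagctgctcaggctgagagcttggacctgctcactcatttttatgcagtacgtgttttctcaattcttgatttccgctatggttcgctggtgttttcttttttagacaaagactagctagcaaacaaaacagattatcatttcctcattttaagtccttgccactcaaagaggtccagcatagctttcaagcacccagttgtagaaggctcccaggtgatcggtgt
Cd79a: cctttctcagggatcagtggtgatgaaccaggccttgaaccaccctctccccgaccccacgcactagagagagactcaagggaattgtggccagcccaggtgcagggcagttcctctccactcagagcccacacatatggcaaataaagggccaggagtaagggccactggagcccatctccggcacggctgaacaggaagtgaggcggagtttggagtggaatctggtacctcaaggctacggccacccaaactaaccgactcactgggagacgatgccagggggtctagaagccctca
Pou2af1: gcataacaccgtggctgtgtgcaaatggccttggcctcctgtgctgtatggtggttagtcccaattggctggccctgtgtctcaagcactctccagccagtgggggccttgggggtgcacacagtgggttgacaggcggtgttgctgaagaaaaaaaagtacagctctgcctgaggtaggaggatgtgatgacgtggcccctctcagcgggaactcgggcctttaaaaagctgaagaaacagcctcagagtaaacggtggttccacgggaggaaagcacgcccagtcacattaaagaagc
Blnk: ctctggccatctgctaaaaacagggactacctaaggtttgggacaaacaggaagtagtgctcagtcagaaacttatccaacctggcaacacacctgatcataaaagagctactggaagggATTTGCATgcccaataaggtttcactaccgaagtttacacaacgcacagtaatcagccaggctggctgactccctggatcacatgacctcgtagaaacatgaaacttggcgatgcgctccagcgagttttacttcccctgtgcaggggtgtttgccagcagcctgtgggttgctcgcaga
Cd22: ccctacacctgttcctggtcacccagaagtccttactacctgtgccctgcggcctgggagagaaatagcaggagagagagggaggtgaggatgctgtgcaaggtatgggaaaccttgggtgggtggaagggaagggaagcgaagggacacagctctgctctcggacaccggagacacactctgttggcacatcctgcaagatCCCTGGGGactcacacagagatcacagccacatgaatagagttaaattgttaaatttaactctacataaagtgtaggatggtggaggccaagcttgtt
Capitals mark a motif match. Each window was searched on both strands for ATGCAAAT, the octamer bound by Pou2f2 with its coactivator Pou2af1, for CCCNNGGG, a core letter pattern of Ebf1 sites, and for GAGGAAGT, a core pattern of PU.1 and Spi-B sites. The octamer was in the Blnk window, on the minus strand, and in that of Vpreb3, which did not pass the test. That is 2 of 33 windows belonging to 28 genes of the list, and 1 of the 12 windows of the 10 fallen genes, against 1.74% of 32851 mouse promoter windows of the same length. CCCNNGGG was in the windows of Cd22 and Spib, again 2 of 33 and 1 of 12, against 13.7% of all windows. GAGGAAGT was in 2 of 33, those of Fcrl1 and Cd37, and in 0 of the 12, against 3.2% of all. Where no capitals stand, these letters are not in the window shown.

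Among the receptor chains, the pair that transmits the antigen signal differed in its readout. Cd79a (ILMN_1246266), the Ig-alpha chain, read 4.75, 4.86 and 4.77 on the knockout arrays and 9.28, 9.68 and 9.52 on the wild-type arrays. All 3 wild-type arrays were far above all 3 knockout arrays, none of which was above background. The means were 4.79 ± 0.06 and 9.49 ± 0.20 (SD, n = 3 each), and Cd79a was at least 15.8-fold lower in the knockout (adjusted p = 0.000216). Such a bound sets the wild-type mean against the lowest detected signal of each knockout array, or the probe's own value where that was higher.

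Cd79b (ILMN_2610822), the Ig-beta partner of Cd79a, stayed detected on every array. It read 10.39, 9.76 and 10.48 in the knockout against 10.50, 10.89 and 10.86 in the wild type. The lowest wild-type array lay just above the highest knockout array, at a difference of −0.54 (SE 0.24, adjusted p = 0.212) that missed the threshold. A second Cd79b probe differed by −0.62 (SE 0.34, adjusted p = 0.292), also without overlap. Signals of 2 different probes are not compared here, so the contrast between both chains is one of their differences, and it was not tested.

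The surrogate light chain genes, used by B cell precursors, gave no call. Vpreb1, the VpreB chain, read 8.0, 6.99 and 7.96 in the knockout against 7.74, 6.62 and 7.66 in the wild type. The groups overlapped, with replicate 2 lowest in each, at a difference of 0.31 (SE 0.41, adjusted p = 0.674). Vpreb3, which associates with immunoglobulin chains in precursors, read 5.07, 5.08 and 4.94 in the knockout against 6.23, 5.90 and 7.43 in the wild type. No knockout array was above background and wild type 3 was the highest. Vpreb3 was at least 2.02-fold lower, with an adjusted p of 0.0636, which was 0.0455 with the replicate number as a block and ran from 0.0043 to 0.178 over all alternatives.

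**Figure D1:**
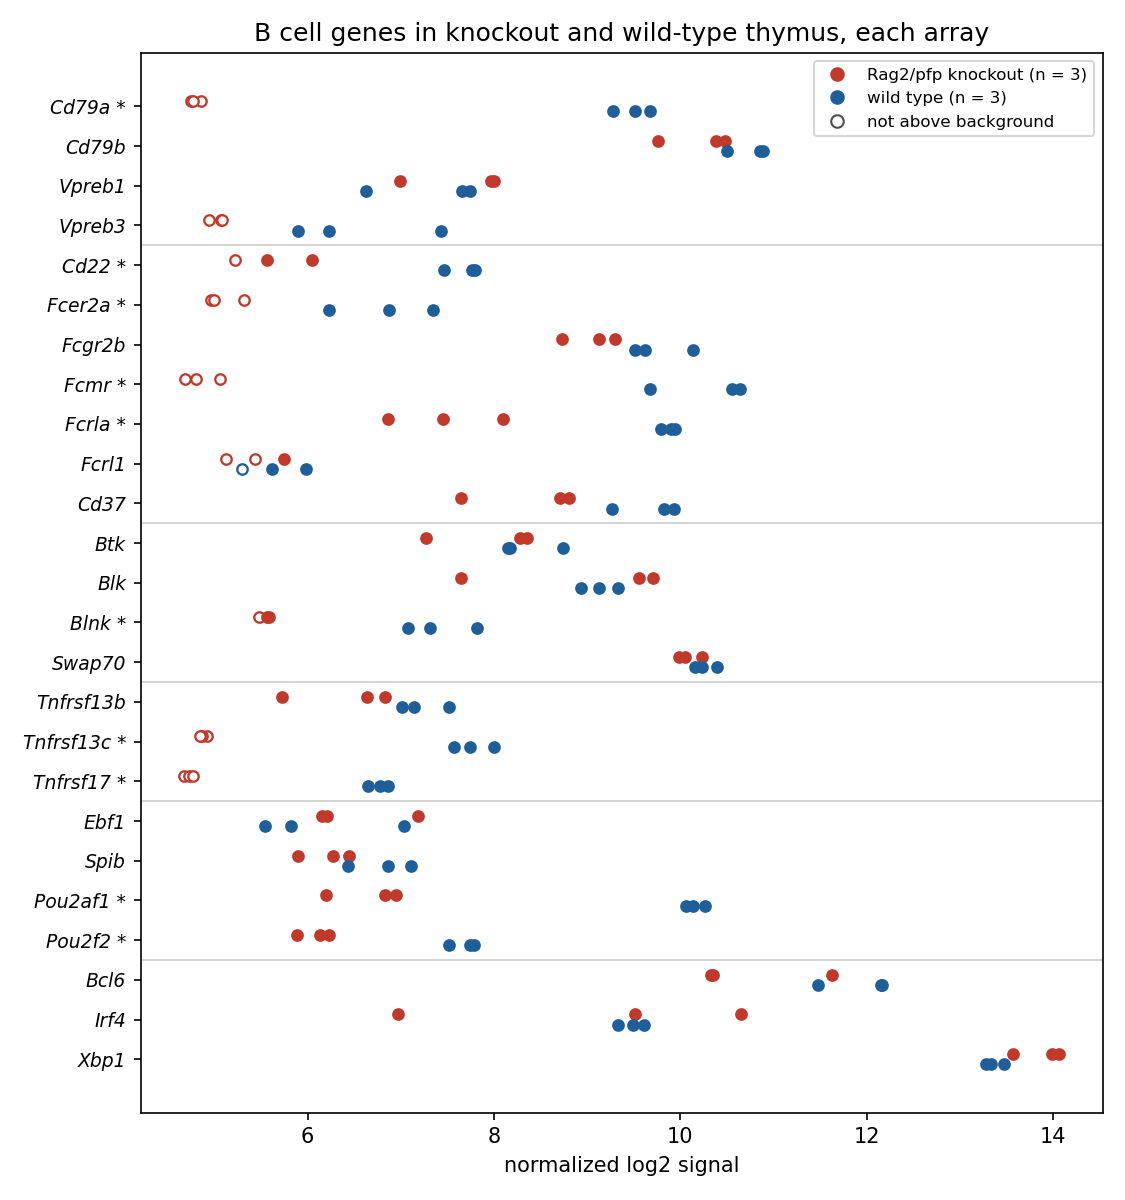
Normalized log2 signal (x axis) of the 25 tested B cell genes (rows, grouped by role) on each of 3 knockout (red) and 3 wild-type (blue) arrays, with open circles where the probe was not above background and an asterisk after genes with an adjusted p under 0.05. For Cd79a the knockout arrays lie from 4.75 to 4.86 and the wild-type arrays from 9.28 to 9.68, whereas those of Blk, Btk and Ebf1 are interleaved.

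Of the 7 surface receptor genes tested, 4 fell (Fcmr, Fcrla, Cd22 and Fcer2a), against 5.57% of all tested genes, and all 7 had a negative difference. Fcmr and Fcer2a passed the detection filter through the wild-type arrays only, and so had to differ to be tested. Fcmr (ILMN_1221820), the Fc receptor for IgM, read 4.81, 4.68 and 5.06 in the knockout against 9.68, 10.56 and 10.64 in the wild type. No knockout array was above background, and wild type 1 was the lowest of its group. The means were 4.85 ± 0.19 and 10.29 ± 0.53 (SD, n = 3 each), so Fcmr was at least 27.6-fold lower (adjusted p = 0.000962).

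Fcrla (ILMN_1236111), an Fc receptor-like protein kept inside B cells, read 7.45, 6.87 and 8.10 in the knockout against 9.94, 9.80 and 9.90 in the wild type. It was detected on all 6 arrays, and the knockout arrays spread more widely than the wild-type arrays. The difference was −2.41 (SE 0.31, adjusted p = 0.0099), or 5.31-fold. The other 3 Fcrla probes also fell (−2.28, −2.10 and, with no knockout array above background, at least 2.06-fold). The call was lost without knockout 1 (adjusted p = 0.0623), wild type 1 (0.0566) or wild type 3 (0.0600), over a range of 0.000104 to 0.0623.

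Cd22 (ILMN_3159170), an inhibitory co-receptor that binds sialic acid, read 5.22, 5.56 and 6.05 in the knockout against 7.47, 7.76 and 7.79 in the wild type. Its weak knockout signal was above background on knockout 2 and 3 only. Cd22 fell by 2.06 on the log2 scale (SE 0.25, adjusted p = 0.00787), or 4.18-fold. A second probe also fell (adjusted p = 0.0139, at least 1.17-fold), and the last was above background on no array. Without wild type 3 the call was lost (adjusted p = 0.0542), over a range of 0.000188 to 0.0542.

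Fcer2a (ILMN_2975312), the low-affinity IgE receptor CD23 of mature follicular B cells, read 4.97, 5.0 and 5.32 in the knockout against 6.87, 6.23 and 7.35 in the wild type. The gene was above background on the wild-type arrays only, and was at least 2.48-fold lower (adjusted p = 0.0222). Its call was the least steady of the 10. It was lost without knockout 1 (adjusted p = 0.0986), knockout 3 (0.0523), wild type 1 (0.0927) or wild type 3 (0.0734), over a range of 0.000269 to 0.0986. The other 2 Fcer2a probes were above background on no array.

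Of the surface receptors that did not pass, Cd37, a tetraspanin of mature B cells, read 8.71, 7.64 and 8.81 in the knockout against 9.82, 9.27 and 9.93 in the wild type. Its groups did not overlap, at a difference of −1.29 (SE 0.36, adjusted p = 0.0748). With the replicate block the adjusted p was 0.0117, and it ran from 0.0013 to 0.237 over all alternatives. Fcgr2b (ILMN_1228657), the inhibitory IgG receptor, likewise separated the genotypes, with 9.30, 8.73 and 9.13 against 10.14, 9.51 and 9.62. Its difference was −0.70 (SE 0.24, adjusted p = 0.123), or 0.0286 with the block and between 0.0286 and 0.343 over all alternatives.

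The 3 Fcgr2b probes did not move alike, since the others differed by −0.68 (adjusted p = 0.0777) and 0.06 (adjusted p = 0.888). Fcrl1, an activating Fc receptor-like protein, read 5.13, 5.43 and 5.75 against 5.62, 5.30 and 5.98. Both groups were near background and overlapped (−0.19, SE 0.25, adjusted p = 0.663).

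Ms4a1, Cr2 and Cd24a did not reach the detection filter. Ms4a1 (CD20) was above background on wild type 2 and 3 only, at 5.91 and 5.57, with 5.07 on wild type 1 and 4.88 to 4.98 on the knockout arrays. Without the filter its adjusted p was 0.221. The Cr2 complement receptor probes and the Cd24a probe were above background on no array, so these data give no order of the genotypes for them.

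Of the signalling proteins just below the receptor, the adaptor fell and the kinases did not pass. Blnk (ILMN_2726931), the adaptor that links Syk to Btk, read 5.59, 5.48 and 5.56 in the knockout against 7.82, 7.08 and 7.31 in the wild type. The knockout arrays were tightly grouped near background, with knockout 2 not above it, and the wild-type arrays were all higher. Blnk fell by 1.86 on the log2 scale (SE 0.22, adjusted p = 0.00769), or 3.63-fold, and its second probe fell by 1.76 (adjusted p = 0.0106). The call was lost without knockout 1 (adjusted p = 0.0518, the highest in a range that began at 0.000219).

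Btk, the Tec-family kinase, read 8.28, 7.27 and 8.36 in the knockout against 8.15, 8.74 and 8.17 in the wild type. Blk, a Src-family kinase, read 9.70, 7.65 and 9.55 against 8.93, 9.33 and 9.13. Both kinases were lowest on knockout 2 and overlapped between genotypes. Their differences were −0.38 (SE 0.35, adjusted p = 0.527) and −0.16 (SE 0.55, adjusted p = 0.877). Without replicate 2 of both genotypes, a setting chosen after the data were seen, Blk had a positive difference of 0.60 (adjusted p = 0.0415, the lowest of a range that reached 0.953) and Btk one of 0.16. The sign of Blk also turned with array weights (0.53) and without knockout 2 (0.50), and that of Btk with array weights (0.06).

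Swap70, which binds membrane phospholipids and actin, read 9.99, 10.23 and 10.05 in the knockout against 10.24, 10.16 and 10.40 in the wild type. Its groups overlapped, and the difference was −0.17 (SE 0.15, adjusted p = 0.520). Of the other 3 Swap70 probes none passed the threshold, although on each every knockout array lay below every wild-type array, in part by very small gaps. The first of them differed by −0.52 and the next by −0.29. The last was just above background on the wild-type arrays and on no knockout array, with an adjusted p of 0.366. The kinase Syk was above background on 1 wild-type array only and was not tested. Without the filter its adjusted p was 0.155.

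Of the 3 receptors for BAFF and APRIL, 2 fell, against 5.57% of all tested genes. Tnfrsf13c (ILMN_2481170), the BAFF receptor, read 4.92, 4.86 and 4.85 in the knockout against 8.0, 7.57 and 7.74 in the wild type. Tnfrsf17 (ILMN_2854497), the plasma cell receptor BCMA, read 4.68, 4.72 and 4.77 against 6.87, 6.78 and 6.65. Both were above background on every wild-type array and on no knockout array. They passed the detection filter through the wild-type arrays only, and so had to differ to be tested. Of all tested genes detected on no knockout array, 60 of 100 fell, so 5.57% is not a like share for these 2. The BAFF receptor was at least 4.81-fold lower (adjusted p = 0.00116), and BCMA at least 2.39-fold lower (adjusted p = 0.00201).

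Tnfrsf13b, the receptor TACI, kept a signal on the knockout arrays. It read 6.63, 5.72 and 6.83 there and 7.52, 7.14 and 7.01 in the wild type. The groups did not overlap, although the gap was small and knockout 2 was the lowest. At −0.83 (SE 0.32), the difference missed the threshold (adjusted p = 0.159).

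Among the transcription factors of B cell identity, the octamer pair fell. Pou2af1 (ILMN_1228328), the coactivator OBF-1, read 6.83, 6.20 and 6.94 in the knockout against 10.27, 10.06 and 10.14 in the wild type. It remained detected on every knockout array while lying far below the wild type. Pou2af1 fell by 3.50 on the log2 scale (SE 0.23, adjusted p = 0.00178), or 11.3-fold. Pou2f2 (ILMN_2687602), the octamer-binding factor Oct-2, read 5.89, 6.23 and 6.14 against 7.51, 7.74 and 7.78. It fell by 1.59 (SE 0.17, adjusted p = 0.00618), or 3.02-fold, again with detection on all 6 arrays and no overlap.

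Spib, an Ets-family factor that plasmacytoid dendritic cells also use, read 6.27, 5.90 and 6.44 in the knockout against 6.87, 6.43 and 7.11 in the wild type. Only the highest knockout array and the lowest wild-type array met. The difference was −0.60 (SE 0.24, adjusted p = 0.169), or 0.0310 with the replicate block, and 0.0043 to 0.457 over all alternatives. Ebf1, an early B lineage factor that is also active in fat precursors, read 6.21, 7.18 and 6.15 against 5.82, 7.03 and 5.54. It was highest on both replicate 2 arrays, and its difference was 0.38 (SE 0.47, adjusted p = 0.649). Those arrays also had the highest Ucp1. However, Ucp1 was 13.62 on knockout 1 and 6.13 on knockout 3, which had nearly equal Ebf1. Ucp1 was 11.75 on wild type 3 and 8.88 on wild type 1, of which wild type 1 had the higher Ebf1. The part of fat tissue in this was not tested. Pax5, the factor that commits cells to the B lineage, was above background on no array.

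No germinal centre or plasma cell gene passed. Bcl6, the repressor that directs germinal centre B cells, read 10.35, 11.63 and 10.33 in the knockout against 12.15, 11.47 and 12.17 in the wild type. Replicate 2 was the array nearest to the other genotype in each group, and the groups overlapped. The difference of −1.16 (SE 0.41, adjusted p = 0.127) passed without knockout 2 (adjusted p = 0.0264), in a range of 0.000468 to 0.338. Irf4, a factor of activated B cells and plasma cells, read 9.51, 10.65 and 6.97 against 9.61, 9.49 and 9.33. The wild-type arrays were tightly grouped and the knockout arrays spread on both sides of them (−0.43, SE 0.88, adjusted p = 0.791).

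Xbp1, which builds the secretory apparatus, was the only tested member whose knockout arrays all lay above the wild type. It read 13.99, 13.57 and 14.06 against 13.48, 13.28 and 13.33. At 0.51 (SE 0.19), the difference missed the threshold (adjusted p = 0.136). Prdm1, the plasma cell repressor Blimp-1, and Jchain, which joins secreted immunoglobulins, were above background on no array.

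**Figure D2:**
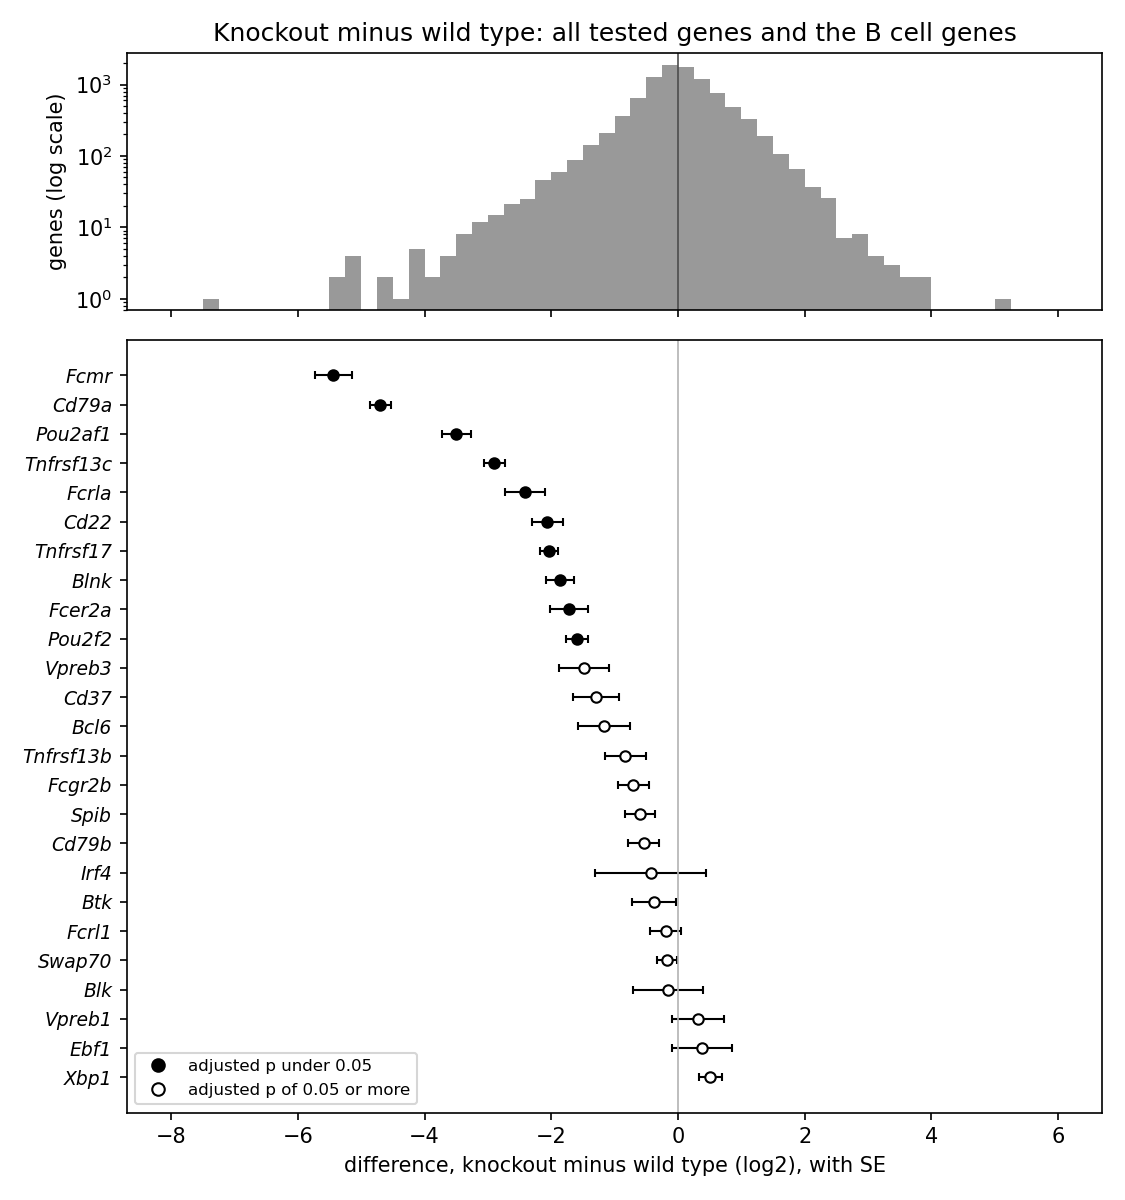
Upper panel, number of genes (y axis, log scale) by difference between knockout and wild type (x axis, log2) for the 9849 tested genes. Lower panel, the same difference with its SE for the 25 tested B cell genes, filled where the adjusted p was under 0.05, of which 22 lie below 0. For Fcmr, Cd79a, Tnfrsf13c, Tnfrsf17, Fcer2a and Vpreb3 no knockout array was above background, so only the bounds in the text hold as folds.

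The falls differed in how far they rested on single arrays. Cd79a, Fcmr, Pou2af1, Pou2f2, Tnfrsf13c and Tnfrsf17 passed the test with any 1 of the 6 arrays left out, and the other 4 lost it in at least 1 such fit. The number of members that fell was 7 without knockout 1, 8 without wild type 1, 7 without wild type 3, 9 without knockout 3 and 11 without knockout 2 or wild type 2. Over all genes, 549 fell with 6 arrays, or 5.57%. Among these fits the count was lowest, at 84, when wild type 3 was left out. It was highest, at 773, when wild type 2 was left out. In the order of the member counts above, 0.965%, 0.944%, 0.853% and 2.89% of all tested genes fell. The share was 4.49% when knockout 2 was dropped and 7.85% when wild type 2 was. With the replicate number as a block, 14 of the 25 fell and 0 rose, against 11.8% and 12.4% of all genes. The 4 genes added were Cd37, Fcgr2b, Spib and Vpreb3. Without replicate 2 of both genotypes, 14 members fell and 2 rose (Blk and Xbp1), against 14.0% and 15.2% of all genes.

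**Figure D3:**
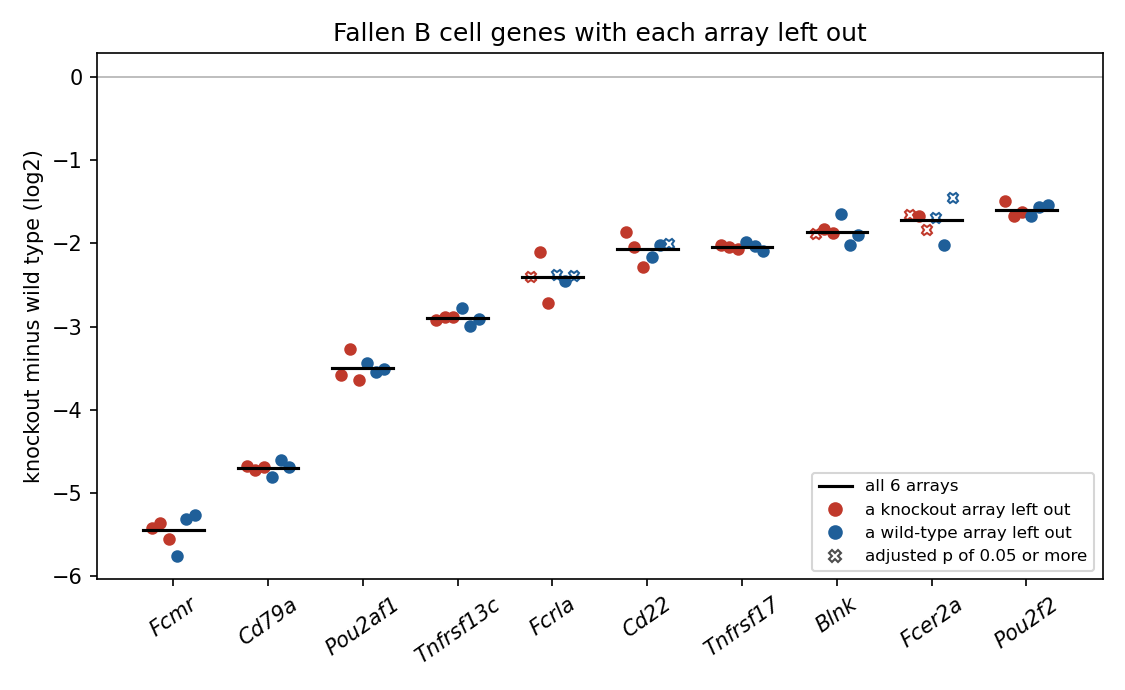
Difference between knockout and wild type (y axis, log2) for the 10 B cell genes that fell, with all 6 arrays (bar) and with each knockout (red) or wild-type (blue) array left out (points, drawn as crosses where the adjusted p was 0.05 or more). All points lie below 0, from −1.46 for Fcer2a to −5.75 for Fcmr, and the 9 crosses belong to Fcrla, Cd22, Blnk and Fcer2a.

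Other genes of antigen receptor signalling moved in both directions. Of 21 listed, 18 were tested, with 4 lower, 1 higher and a median difference of −0.52. Among all tested genes 5.57% were lower and 6.09% higher, with a median of 0.01. Prkcb, the protein kinase C isoform downstream of the receptor, fell by 2.08 (SE 0.26, adjusted p = 0.00857). Ptprc, the CD45 phosphatase of all leukocytes, fell by 1.43 (adjusted p = 0.0331), and Inpp5d, the lipid phosphatase SHIP, fell by 1.35 (adjusted p = 0.0401). The exchange factor gene Vav2 was above background in the wild type only and was at least 1.07-fold lower (adjusted p = 0.0251), whereas Vav3 rose by 1.05 (adjusted p = 0.0455). Cd81 and Vav1 were the brightest genes that did not pass (−0.13 and −0.86, adjusted p = 0.826 and 0.128). Vav1 passed with the replicate block (adjusted p = 0.0212), in a range of 0.00401 to 0.347. Most of these genes also act in T cells.

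Of 15 other surface, antigen presentation and migration genes, 14 were tested, with 2 lower, 2 higher and a median of −0.42. The shares of all tested genes were 5.57% lower and 6.09% higher. Cxcr5, the receptor that guides B cells into follicles, read 4.94, 4.72 and 5.40 in the knockout against 7.65, 7.91 and 7.93 in the wild type. No knockout array was above background, and Cxcr5 was at least 5.02-fold lower (adjusted p = 0.0031). Like Vav2, it passed the detection filter through the wild-type arrays only, and so had to differ to be tested. H2-Ob, a chain of the class II modulator H2-O, fell by 1.96 (adjusted p = 0.0314). Cd83, a surface protein of activated antigen-presenting cells and thymic epithelium, rose by 2.16 (adjusted p = 0.00698), and Ciita, the class II transactivator, rose by 0.97 (adjusted p = 0.0408). The class II chaperone Cd74 and the surface antigen Ly6d did not pass (0.46 and −0.47, adjusted p = 0.305 and 0.470).

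Of 13 other transcription factors of the B lineage, 9 were tested, with 2 lower, 1 higher and a median of 0.17, against the same shares of all tested genes (5.57% and 6.09%). Ikzf1 (Ikaros) fell by 1.72 (adjusted p = 0.0291) and Lef1 by 1.40 (adjusted p = 0.0313), and both also serve T cell development. Bcl11a, a factor of early lymphoid and dendritic cells, rose by 1.44 (adjusted p = 0.0378). Foxo1 and Irf8 did not pass (0.17 and 0.51, adjusted p = 0.573 and 0.411). Of the 12 genes that passed in these 3 lists, only Cxcr5 did so with any 1 array left out. In other settings, Vav2 lost its call without background correction and in the authors' processed values (adjusted p = 0.102 in both) and at an offset of 50 (0.0858). Vav3, Inpp5d and Ciita lost theirs with median centring (adjusted p = 0.0658, 0.0576 and 0.0568) and with no detection filter (0.0618, 0.0592 and 0.0509), and H2-Ob and Bcl11a with no detection filter (0.0509 and 0.0567). Over all alternatives the adjusted p of these 6 genes ran from 0.000259 to 0.156.

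Markers of cell types were summed as linear normalized signal and set beside these results. The 9 B cell markers with a probe summed to 1238 to 1751 units on the knockout arrays and 2769 to 3444 on the wild-type arrays, with Pax5 and Cr2 above background on no array. Cd79b, which was not called, made up 867.2 to 1429 units of the knockout sums and 1447 to 1898 of the wild-type sums, and the other 8 markers 281.6 to 371 and 1322 to 1547. Most other lists overlapped between genotypes. The ranges, knockout first, were 10940 to 18930 and 6726 to 18210 for 7 plasmacytoid dendritic cell markers (Ccr9 undetected), among which Pacsin1 fell by 3.35 (adjusted p = 0.00724) and Tcf4 rose by 0.76 (adjusted p = 0.0417). Both upper ends came from replicate 2, where Cox6a2 read 13.35 in the knockout and 13.52 in the wild type, against 8.35 to 11.74 on the other arrays. Those replicate 2 arrays also had the highest Ucp1 and Myh6. On the other arrays the sums were 10940 to 11220 and 6726 to 7092. The source of the Cox6a2 signal was not tested. The ranges were 1186 to 1786 and 1175 to 2303 for 8 conventional dendritic cell markers, of which Itgax, Xcr1, Clec9a and Flt3 were undetected. For 5 NK cell markers they were 292.6 to 400.8 and 197.8 to 319.8, with Ncr1, Gzma and Eomes undetected.

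The sums of the 7 macrophage markers did not overlap, at 9452 to 9755 and 10660 to 14620. Gene by gene, 1 of the 7 (Lyz2) did not overlap, or 14.3%, against 34.2% of all tested genes. The 6 neutrophil and mast cell markers ranged over 1383 to 3683 and 1776 to 12440, and the 3 erythroid markers over 18080 to 45110 and 12200 to 58630. The 5 thymus markers, all detected, summed to 14700 to 26340 and 20950 to 28090. Within them Rag1 fell by 2.13 (adjusted p = 0.00734), Ptcra rose by 1.83 (adjusted p = 0.0147) and Foxn1, above background in the knockout only, was at least 1.91-fold higher (adjusted p = 0.0198), while Cd3e and Dntt were not called. Markers of lymph node stroma (5 genes, 1582 to 7019 and 3073 to 13090) and of neighbouring organs (5 genes, 1621 to 28240 and 2400 to 25550) spread widely in both genotypes. Gene by gene, all 4 stroma markers tested had a negative difference, and none was called. Their median was −1.16, against 0.01 for all tested genes. Only Ccl19 had every knockout array below every wild-type array, 1 of 4 or 25%, against 17.3% of all tested genes. Single markers past the threshold in the remaining lists were Lyz2 among macrophage markers (−0.97, adjusted p = 0.0413), Cpa3 among mast cell markers (1.92, adjusted p = 0.0398) and Tg among neighbouring organs (at least 1.49-fold lower, adjusted p = 0.0191). These marker genes were named after their values were seen. The stroma sum was highest on wild type 3. The number of members that fell was 7 without that array and also 7 without knockout 1, whose stroma sum was 2656. In those fits 0.853% and 0.965% of all tested genes fell, against 5.57% with all 6 arrays. Because calls were lost over the whole array, these counts cannot show what stroma contributed. The part of other cells or tissues in the falls was not tested.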

How the data were processed

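Thymus RNA of 3 knockout and 3 wild-type samples was compared, with groups and replicate numbers taken from the sample titles. The probe intensities, per the file headers, were deposited by the authors as linear values without normalization; the submitters' processing notes name GenomeStudio 2011.1. Beside each intensity the authors deposited a detection p-value, per the file headers, in steps of 0.00125. The authors also deposited processed log2 values, which differed from quantile-normalized log2 intensities by at most 5e-07, had a median of 7.48 in every column and were not centred. That table was used as an alternative only.

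Signals were background corrected from the detection p-values (offset 16), quantile normalized and log2 transformed as neqc does (limma 3.58.1, R 4.3.3). Probes with a detection p under 0.05 on at least 3 of 6 arrays were tested (14097 of 25697) with lmFit and eBayes, and Benjamini-Hochberg adjustment ran over all of them at 0.05. For a gene with several tested probes, the one with the highest mean over the arrays stands for it. Gene symbols came from the platform annotation, in which 23978 probes had 1 symbol and 1719 had none. Promoters were searched and figures drawn with matplotlib 3.10.9, pandas 2.3.3 and numpy 2.4.6 in Python 3.11.15. The fit was tested on simulated data. Precision is limited by the number of arrays.

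The members and lists were chosen with earlier results of these data known. Every member is accounted for by role. Per pathway list, up to 4 genes past the threshold with the largest difference and up to 2 others with the highest mean are named. Other genes (Rag2, Prf1 and those that set arrays apart) were added as checks of the arrays.

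The shared numbers in the titles were fitted as a block in an alternative only. Deviations of same-numbered arrays from their genotype means correlated at 0.104, 0.75 and 0.559. Knockout 3 with wild type 1 reached 0.727 and knockout 1 with wild type 3 reached 0.108, so these values do not establish that the numbers mark pairs. The alternatives were the authors' processed values, an offset of 50, no background correction, median centring, no detection filter, detection under 0.01 on all arrays, the block, trend with robust moderation, array weights, other ways to represent a gene, and leaving out each array. Leaving out replicate 2 of both genotypes was added after the data were seen.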

Additional observations from a re-analysis of the deposited data

How the results depend on the processing

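The 10 falls held their direction in every alternative, and all 10 stayed past the threshold in each alternative that tested them except when 1 array was left out. The count of members lower ran from 7 to 11 over those fits and that of members higher was 0 throughout. Over all genes the same fits gave 84 to 773 lower and 66 to 733 higher. Requiring detection under 0.01 on all 6 arrays left 12 members to test, of which 2 were lower, against 5.66% of 7653 genes. The replicate block gave 1163 genes lower and 1223 higher, and beside Cd37, Fcgr2b, Spib and Vpreb3 it changed no other member's call, while Vav1 also passed. Array weights (gene-by-gene estimation) gave 18 members lower and 1 higher, and 2622 genes lower and 2459 higher. Leaving out replicate 2 of both genotypes, chosen after the data were seen, gave 14 members lower and 2 higher, and 1378 genes lower and 1500 higher. It also turned the difference of Blk to 0.60. The causes were not tested. With 3 arrays a group, probes near background, such as Ms4a1, Syk and Fcrl1, carry little information.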

Other observations

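The single Cd24a probe, for a surface antigen that is abundant on thymocytes as well as on B cells, was above background on no array of either genotype, at a normalized log2 signal of 4.69 to 5.09. Ccr9, listed as a plasmacytoid dendritic cell marker and also known from thymocytes, was likewise above background on no array. Irf4 varied more between the knockout arrays than any other tested member, with an SD of 1.89 (n = 3) against 0.14 (n = 3) in the wild type. Of the 16 members detected on all 6 arrays, 9 had their lowest value on knockout 2 (56.2%), against 35.1% of the genes detected on all 6 arrays.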
